A study of Mus musculus with 40 samples.

Results

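The forebrain of mouse embryos that carried an added copy of Chd8 (KI in the labels, genotype Chd8 KI) was compared with that of wild-type embryos (WT) at embryonic stage E14.5, by RNA sequencing of polyadenylated RNA. Each genotype had 5 libraries, each made from the forebrain of a male mouse, 10 of the 40 samples of the series. The comparison was taken whole: all 17940 genes in the authors' deposited table for this stage were members, and none was chosen by its value. The same genotypes at E18.5, with 5 libraries each and 15449 genes, served only to show where the earlier stage differs. The labels name no agent and no second allele. They do not state where the added copy sits, which promoter drives it, or how many founders the line has, and nothing says whether the 5 embryos of a group came from separate litters. All p-values therefore measure the spread between these libraries.

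CHD8 is an ATP-dependent chromatin remodeler that binds the promoters of many active genes. It was first known as a repressor of beta-catenin, the effector of Wnt signalling, and loss of 1 copy of the human gene is among the best established single-gene causes of autism with a large head. At mid-gestation the forebrain holds dividing radial glia along the ventricle, intermediate progenitors, the first excitatory neurons of the dorsal cortex and the GABAergic neurons of the ventral ganglionic eminences. The study's title asks what follows in mice when the gene is duplicated.

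Values per gene are a mean normalized count over the 10 libraries, a log2 fold change (positive where KI was higher) and its standard error (SE), from the authors' deposited table. No value per library was at hand, so the level of a gene in single embryos and the overlap of the groups cannot be shown, and the depth per library is unknown. The SE carries the precision instead. It had a median of 0.0684 over the 13417 genes that have an adjusted p, here called genes tested, whose median mean normalized count was 615. The other 4523 genes had no adjusted p, and 3 rows had no p-value either. They were mostly scarce, with a median mean normalized count of 5.39 and a median SE of 0.624. A gene is called where the deposited adjusted p is under 0.05.

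Forebrain identity was plain in the levels. Lhx2, a transcription factor of the early forebrain, had a mean normalized count of 6087 in the authors' deposited table, and Emx1, of the dorsal telencephalon, 1281, and neither was called. No value of the 14 Hox genes listed for hindbrain and spinal cord was used here. The Y-linked genes Kdm5d, Eif2s3y, Ddx3y and Uty had mean normalized counts of 1479, 1406, 1114 and 587 with no call, and Xist had 7.08, which fits the male embryos named in the protocol.

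Chd8 was 55.8% higher in KI than in WT. Its log2 fold change was 0.64 in the authors' deposited table (SE 0.0313, 95% interval 0.58 to 0.70). Its mean normalized count was 6900, and its adjusted p of 1.49e-88 was the lowest of the table. Chd8 also fixes the sign of every other value: the header does not say which genotype is the numerator, so its rise does not check the labels independently. The gene (NCBI gene ID 67772) spans chromosome 14 from 52198151 to 52258042 in GRCm38.p6. Within 1 Mb on either side 12 genes were tested and 0 were called, with log2 fold changes from −0.09 to 0.25, a median of 0.09 and 10 of 12 above 0. At an unadjusted p under 0.05 the neighbours Arhgef40, Mettl3 and Sall2, singled out after their values were seen, stood at 0.11, 0.14 and 0.11 (SE 0.0456, 0.0559 and 0.0398) per the authors' deposited table. Chd7, of the same CHD subfamily, was at 0.16 (SE 0.0503, adjusted p = 0.0835), and none of the 8 other CHD genes was called. Of all 9 CHD genes, Chd8 included, 5 had an unadjusted p under 0.05 (11.5% of all genes tested did). In that family 7 lay above 0 and the median was 0.08.

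Across the genome the change was narrow and small. Of 13417 genes tested 162 were called (1.21%), 99 of them higher in KI (0.738% of genes tested) and 63 lower (0.470%), so that 61.1% of the called genes were higher. When the authors' Wald statistics were scaled to their own spread (an empirical null), 31 genes passed, 25 higher and 6 lower, a share of 80.6% higher. Over all genes tested 49.8% lay above 0, the median log2 fold change was −0.0005, and the middle 90% ran from −0.177 to 0.216 in the authors' deposited table. For 70.0% of the genes the estimate was within 0.1 of 0. The 95% interval stayed within 0.25 of 0 for 8305 genes (61.9%) and within 0.5 for 11896 (88.7%), which is how far the 5 libraries a group bound a difference. An unadjusted p under 0.05 was reached by 1548 genes (11.5%), 840 higher and 708 lower.

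**Figure D1:**
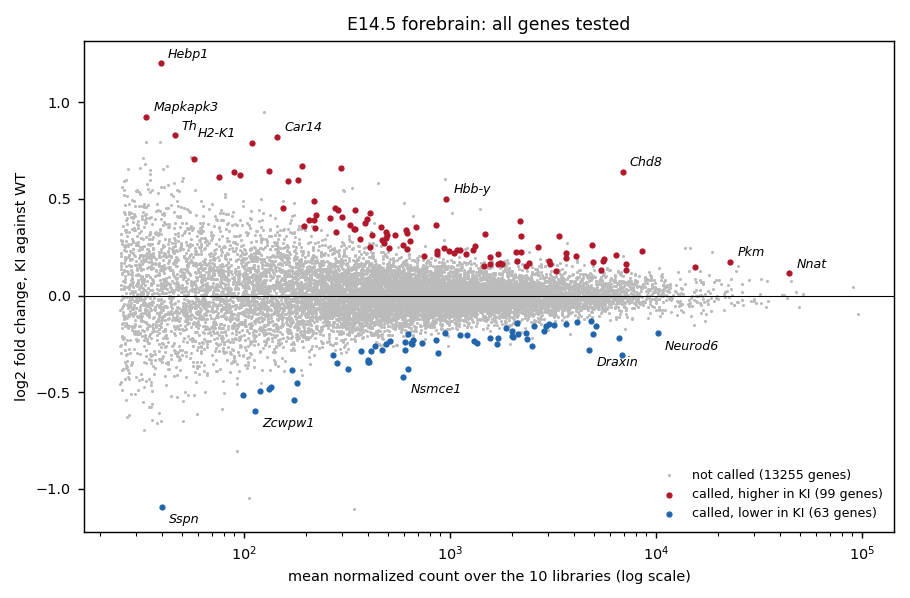
Mean normalized count over the 10 libraries (log scale, horizontal) against the log2 fold change of KI against WT (vertical) for each of the 13417 genes tested at E14.5. Grey points are the 13255 genes not called, red the 99 called higher and blue the 63 called lower. Chd8 stands at 0.64 and a mean normalized count of 6900, apart from other genes of its level, and called genes of low count lie farther from 0 than those of high count.

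Among the rises, sizes were spread more widely than among the falls. The median absolute log2 fold change was 0.293 for the higher genes and 0.245 for the lower ones. From 0.5 to 1 there were 14 higher and 3 lower genes, and past 1 there was 1 of each: Hebp1, a heme-binding protein, at 1.20 (SE 0.262) and Sspn, the sarcospan of the dystrophin complex, at −1.09 (SE 0.241) per the authors' deposited table. Both are scarce, with mean normalized counts of 39.5 and 40.1. Below 0.2 there were 22 higher and 17 lower genes. The call ends without a gap: the next gene had an adjusted p of 0.0502, and 157 further genes lay under 0.1.

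What could be called depended on abundance. In the lowest of 5 equal classes of mean normalized count the median SE was 0.181, 16 of 2684 genes were called (0.596%), and the smallest called change was 0.471. In the highest class the median SE was 0.0425, 50 of 2684 were called (1.86%), and the smallest called change was 0.114, that of Nnat. Among scarce genes a change of 0.2 was thus not detectable at this depth. By genomic length the split differed: under 10 kb 29 of 3221 were called higher and 15 lower, whereas over 100 kb 16 of 2051 were higher and 18 lower. Over all genes tested the share above 0 went the same way, 52.9% under 10 kb, 51.7% from 10 to 30 kb, 46.6% from 30 to 100 kb and 45.7% over 100 kb. Median genomic length was 21.7 kb for the higher called genes, 34.1 kb for the lower and 24.9 kb for all genes tested. Of the 14 mitochondrially encoded genes tested, 1 lay above 0, with a median of −0.083 and 0 called. What part length or RNA quality has in these counts was not tested.

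By chromosome, leaving aside the mitochondrial genome (0 of 14) and Y (0 of 4), the share called ran from 0.457% on chromosome 19 (2 of 438) to 2.81% on chromosome 6 (18 of 640, exact 95% binomial interval 1.68 to 4.41, counting error only). The 18 genes of chromosome 6 were 9 higher and 9 lower, among them Hebp1, Sspn, Tpi1, Neurod6, Marchf8, Chl1 and Ndnf. Chromosome 15 followed with 12 of 509 (2.36%, interval 1.22 to 4.08), 7 higher and 5 lower. Intervals of 10 Mb were singled out where they held at least 4 called genes, with 1.21% called over all genes tested. Chromosome 15 from 80 to 90 Mb held 5 of 104 tested (4.81%: Atf4, Mpped1, Phf21b, Mlc1 and Mapk12). Chromosome 17 from 30 to 40 Mb held 5 of 143 (3.50%: Notch3, Rgl2, H2-K1, H2-D1 and H2-Q4). The H2 genes of that interval are paralogs that may share reads. Chromosome 2 from 150 to 160 Mb held 4 of 117 (3.42%: Tspyl3, Nnat, Gm14204 and Actr5). Whether called genes cluster by position was not tested. Without chromosome 6, 136 genes were called over the rest, 62.5% of them higher. Of the called genes 155 are protein-coding and 6 are long noncoding RNAs, 5 of these higher.

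**Figure D2:**
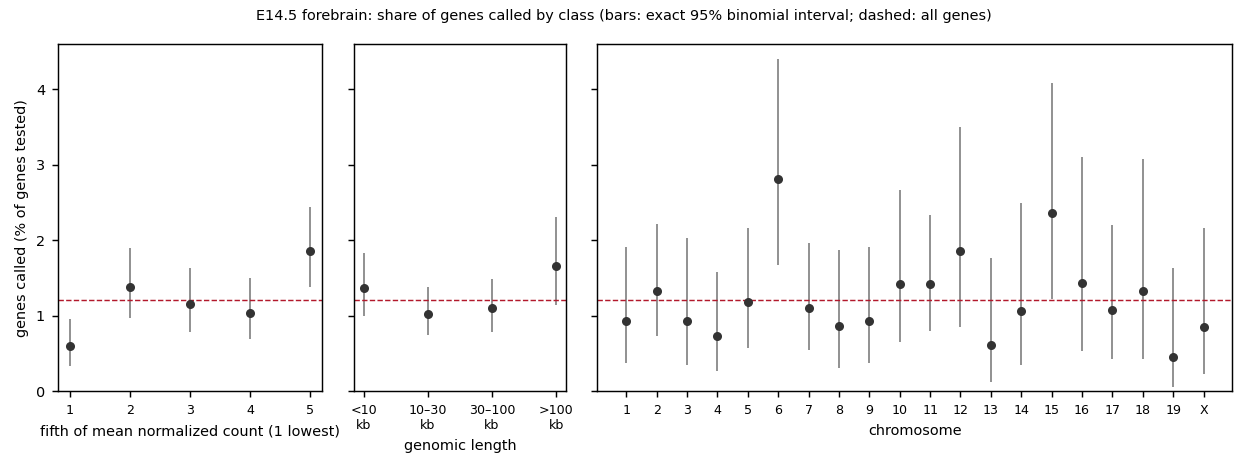
Share of genes tested that were called at E14.5 (percent, vertical) in 5 equal classes of mean normalized count, in 4 classes of genomic length and on each chromosome. Points are shares, bars exact 95% binomial intervals, and the dashed line is the share over all genes, 1.21%. Of the chromosomes, 6 (2.81%) and 15 (2.36%) have an interval above the line, and the highest count class (1.86%) stands above the lowest (0.596%).

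Called genes are taken up below in the order of what they are known to do. That order was drawn up after the values were seen and serves as a guide only. Counts of called genes in the gene lists are to be read against the shares over all genes tested, 1.21% called, 0.738% higher and 0.470% lower. The mean normalized counts span the whole of a bulk tissue, in which fewer cells of a type and less RNA per cell cannot be told apart. Of the 162 genes, 34 (21.0%) overlap the span of another annotated gene and may share reads with it, since the counting is not stated to use strand. The overlap is named for some of these genes only, so a gene given without it may still have one.

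Secreted and matrix proteins come first. Igfbp5 and Igfbp4, secreted binders of insulin-like growth factors, were 23.9% and 24.5% higher in KI, with log2 fold changes of 0.31 (SE 0.0475, adjusted p = 1.70e-07) and 0.32 (SE 0.0544, adjusted p = 8.24e-06) per the authors' deposited table. Fras1, an extracellular protein of basement membranes, rose at 0.37 (SE 0.0560, adjusted p = 1.70e-07). Mdk, the heparin-binding growth factor midkine, rose at 0.25 (SE 0.0459, adjusted p = 4.15e-05) per the authors' deposited table, though its span overlaps that of Chrm4. Lama5, a laminin chain, Reck, a membrane inhibitor of matrix metalloproteases, and Smoc1, a calcium-binding matrix protein, rose at 0.38, 0.45 and 0.27 (SE 0.0752, 0.114 and 0.0747). Col18a1, the collagen that yields endostatin, and Plod3, which hydroxylates collagen lysines, rose at 0.22 and 0.23 (SE 0.0598 and 0.0605) per the authors' deposited table.

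Markers of tissues outside the neuroepithelium are set beside these. Those of meninges and fibroblasts lay above 0 in 6 of the 7 members tested (median 0.41, 0 called, 3 at an unadjusted p under 0.05), with Col1a2 at 0.61 (SE 0.207, adjusted p = 0.118) from a mean normalized count of 50.9 in the authors' deposited table, and Col1a1 too low to be tested at 16.2. All 6 erythroid genes tested were above 0 (median 0.52), and 2 were called higher (0.738% of all genes tested were): the embryonic globin Hbb-y at 0.50 (SE 0.0683, adjusted p = 1.64e-09) and the zeta-like globin Hba-x at 0.59 (SE 0.149, adjusted p = 0.0118). Endothelial markers lay close to 0, with 3 of 13 above it, a median of −0.03 and 0 called even at an unadjusted p under 0.05. Cldn5 and Pecam1 stood at −0.04 and 0.02 (SE 0.0784 and 0.0841). Mural cell markers were above 0 in 2 of 7 (median −0.03), Notch3 being the 1 called, and microglial markers in 7 of 11 (median 0.03, 0 called). Choroid plexus markers were near the floor: Ttr had a mean normalized count of 5.76, and 2 of 11 members were tested. Without a value per library the summed level of these lists in each group cannot be given, and their part in the rises of matrix and other genes was not tested.

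**Figure D3:**
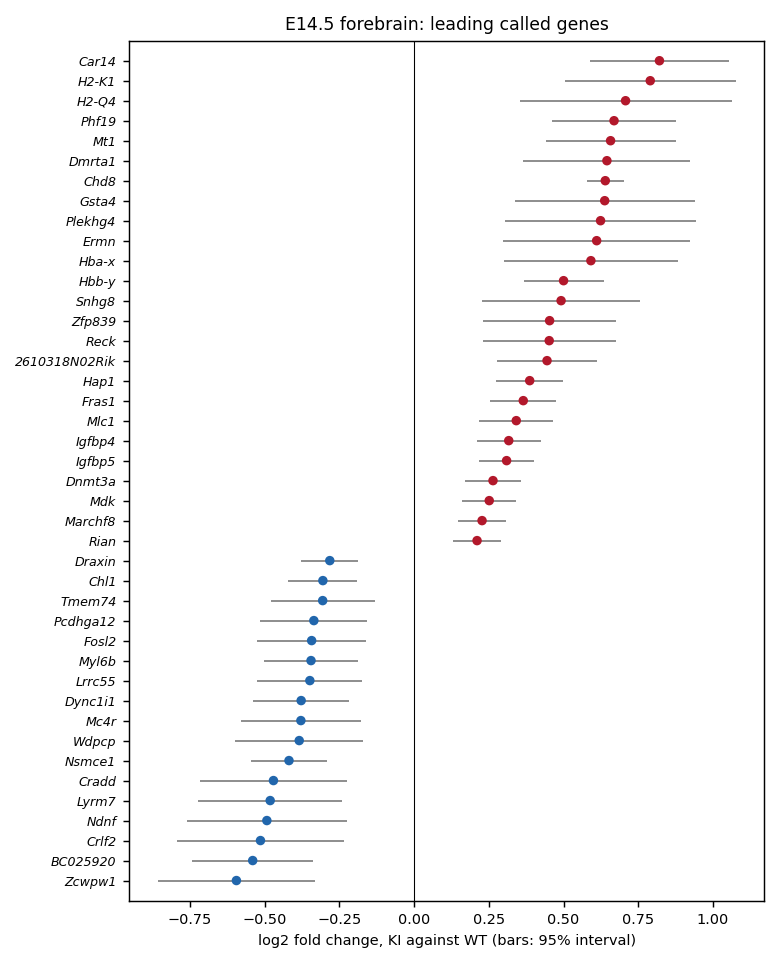
Log2 fold change of KI against WT at E14.5 (points) with its 95% interval (bars) for the 42 genes given in full, those with the lowest adjusted p or the highest and lowest log2 fold change among the called genes whose mean normalized count reached 50. Red genes were called higher and blue genes lower. Chd8 at 0.64 has the narrowest interval of the large rises, whereas Car14, H2-K1 and H2-Q4 lie farther out with wider ones.

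Chromatin and DNA-binding proteins were found on both sides. Dnmt3a, the de novo DNA methyltransferase of developing neurons, was 20.1% higher at a log2 fold change of 0.26 (SE 0.0477, adjusted p = 3.33e-05) per the authors' deposited table. Phf19, a Polycomb-like partner of PRC2, the complex that methylates H3K27, was 59.0% higher at 0.67 (SE 0.107, adjusted p = 5.89e-07). Hmga2, an architectural protein of stem cells and early progenitors, rose at 0.43 (SE 0.0958), and Phf21b, a PHD-finger protein, at 0.22 (SE 0.0447). Actr5, a subunit of the INO80 remodeler, and Onecut2, a homeodomain factor, rose at 0.25 and 0.41 (SE 0.0725 and 0.119) per the authors' deposited table. Against these, Bmi1, a core subunit of PRC1 that sustains neural stem cell renewal, fell by 0.16 on the log2 scale (SE 0.0404, adjusted p = 0.0119), and Nsmce1, a ring-finger subunit of the SMC5/6 complex, was 25.2% lower at −0.42 (SE 0.0646, adjusted p = 1.75e-07). Zcwpw1, a reader of methylated histone H3 in meiosis, was at −0.59 (SE 0.134) per the authors' deposited table.

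Few other members of the same complexes were called. Of 22 Polycomb genes tested, Phf19 and Bmi1 were the 2 called, in opposite directions; the list had a median of 0.03 and 16 above 0, and the catalytic subunit Ezh2 stood at 0.04 (SE 0.0386). Of 21 SMC complex genes Nsmce1 was the 1 called (median −0.01), and Smc5 and Smc6 stood at 0.05 and −0.03 (SE 0.0509 and 0.0449) per the authors' deposited table. The COMPASS enzymes that methylate H3K4, to whose WDR5 subunit CHD8 is known to bind, had 0 of 22 called (3 at an unadjusted p under 0.05) and a median of 0.03, with Wdr5 at −0.02 (SE 0.0455). Splicing regulators had 0 of 24 called (4 unadjusted, median −0.01), although Srsf5, a splicing factor outside that list, rose at 0.19 (SE 0.0530). Among 29 high-confidence autism genes listed 0 were called, 6 had an unadjusted p under 0.05, 11 lay above 0 and the median was −0.01, where 49.8% of all genes tested lay above 0. That list does not hold Chd8, itself an autism gene and called, so its counts do not cover every autism gene.

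Genes of DNA replication and histone supply on the higher side include several that act in S phase. Tk1, the thymidine kinase of S phase, rose at 0.35 (SE 0.0797), Timeless, which protects replication forks, at 0.24 (SE 0.0544) and Pif1, a DNA helicase, at 0.31 (SE 0.0690) per the authors' deposited table. Nasp, a histone chaperone, Sass6, which builds the centriole's cartwheel, and the nuclear chaperones Anp32a and Anp32b rose at 0.13, 0.24, 0.16 and 0.20 (SE 0.0372, 0.0681, 0.0399 and 0.0444). Ccnd1, the D-type cyclin of G1, rose at 0.18 (SE 0.0463) and was the 1 gene called of 21 in the replication and G1/S list. The called genes named before it lie outside that list. The list had 16 above 0, a median of 0.04 and 1 at an unadjusted p under 0.05. The replication genes Mcm2 and Mcm3 stood at 0.01 and −0.01 (SE 0.0475 and 0.0549). In the list of 20 mitotic genes 18 lay above 0 with a median of 0.05, 0 called and 3 at an unadjusted p under 0.05, and the proliferation markers Mki67 and Top2a were both at 0.03 (SE 0.0461 and 0.0468) per the authors' deposited table. Against these rises Smug1, a uracil-DNA glycosylase of base repair, was at −0.23 (SE 0.0621). Targets of p53 had 14 of 17 above 0, a median of 0.09, 0 called and 4 at an unadjusted p under 0.05, with Cdkn1a at 0.10 (SE 0.0971).

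Signalling lists held at most 1 called gene each, where 1.21% of all genes tested were called. Their medians ran from −0.05 (FGF) to 0.10 (Hedgehog). All 14 Hedgehog pathway genes tested were above 0, from 0.01 to 0.35, with a median of 0.10, 0 called and 3 at an unadjusted p under 0.05; the target genes Ptch1 and Gli1 stood at 0.18 and 0.16 (SE 0.0739 and 0.137) per the authors' deposited table. In the Notch list 17 of 18 were above 0 (median 0.07), and the receptor Notch3 was called at 0.20 (SE 0.0505, adjusted p = 0.0120), whereas Notch1 stood at 0.10 (SE 0.0542) and the target Hes1 at 0.23 (SE 0.0786, adjusted p = 0.132). Wnt genes lay above 0 in 18 of 24 (median 0.07) with Ccnd1 as the 1 called; the feedback target Axin2 was at 0.15 (SE 0.0536, adjusted p = 0.145) and Lef1 at 0.00 (SE 0.0884). In the FGF list 4 of 15 were above 0 (median −0.05, 0 called, 5 unadjusted). BMP and TGF-beta genes were split, 9 of 18 above 0, with the BMP target Id2, an inhibitor of basic helix-loop-helix factors, 16.7% lower at −0.26 (SE 0.0580, adjusted p = 0.00205) and Id1 at 0.14 (SE 0.119) per the authors' deposited table. Stress kinases were called outside these lists: Map3k20, the kinase ZAK, Mapk12, a p38 kinase, and Mapkapk3, a kinase downstream of p38, rose at 0.40, 0.36 and 0.93 (SE 0.0835, 0.0984 and 0.244), and Mapk8, the kinase JNK, was at −0.13 (SE 0.0343). Mapkapk3 is scarce, with a mean normalized count of 33.6.

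**Figure D4:**
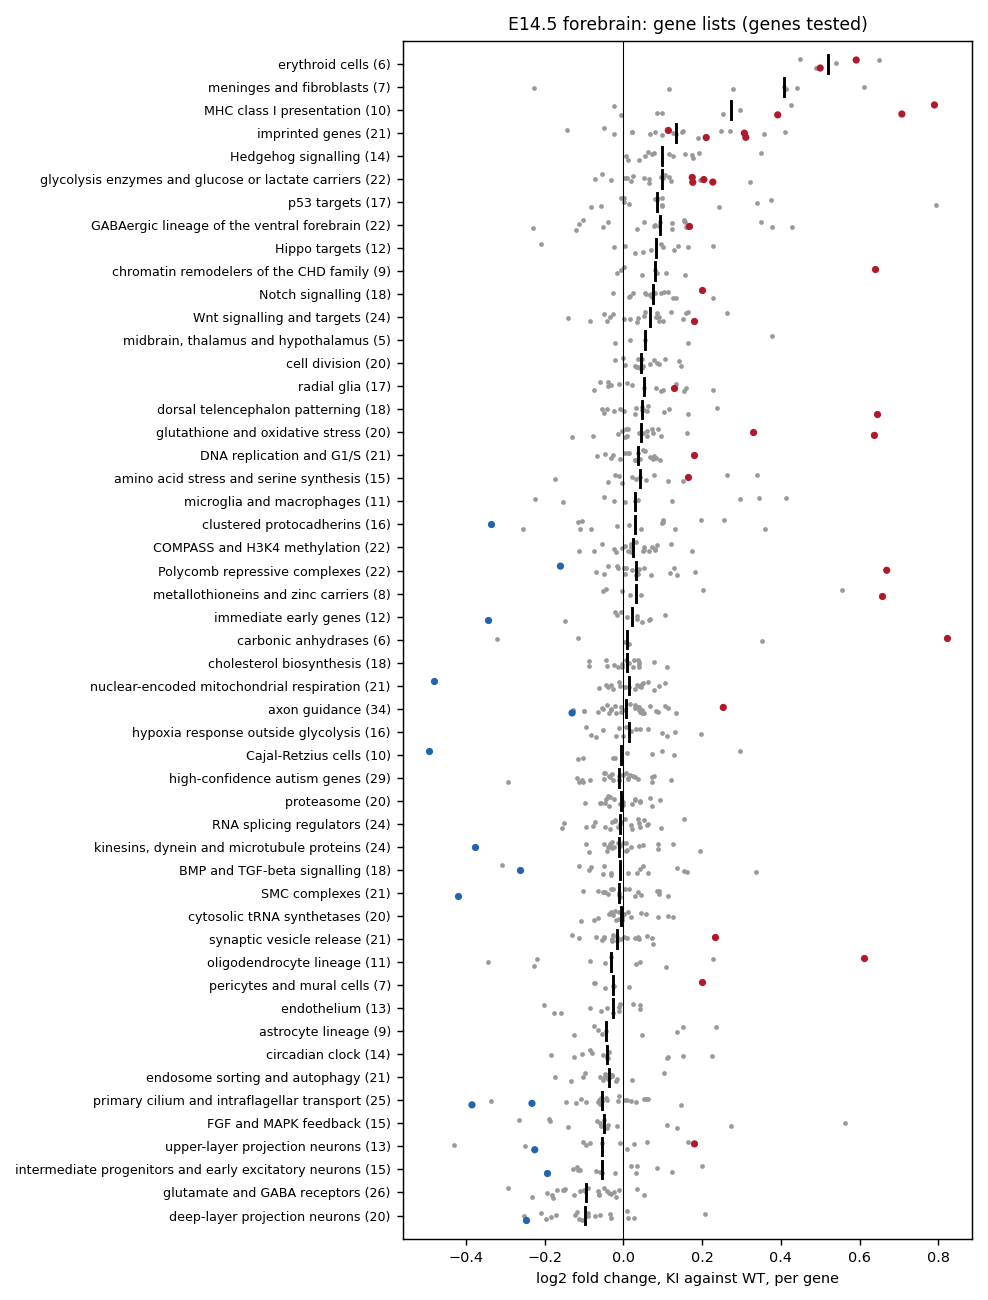
Log2 fold change of KI against WT at E14.5 for each gene tested, in those of the 54 gene lists that hold at least 5 such genes (number in brackets). Red and blue points are genes called higher and lower, grey points were not called, and the black stroke is the list's median. Erythroid genes (median 0.52), meninges and fibroblasts (0.41) and MHC class I presentation (0.27) lie highest, and deep-layer projection neurons (−0.10) and glutamate and GABA receptors (−0.09) lowest.

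Axon guidance and adhesion genes were called in both directions. Draxin, a repulsive guidance protein of forebrain commissures, was 17.8% lower at −0.28 (SE 0.0490, adjusted p = 9.97e-06), and Chl1, a cell adhesion molecule of the L1 family, 19.1% lower at −0.31 (SE 0.0589, adjusted p = 0.000155) per the authors' deposited table. Both are abundant, at mean normalized counts of 4767 and 6860; Draxin overlaps Mad2l2. Robo2, a receptor for Slit, was at −0.13 (SE 0.0352), and the attractant Ntn1 rose at 0.25 (SE 0.0616). These were the 2 called among 34 axon guidance genes, of which 17 lay above 0 with a median of 0.01.

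Regulators of actin and microtubules in neurites follow. Shtn1, shootin, which couples actin flow to adhesion in the growth cone, was at −0.18 (SE 0.0429), Stmn4, of the stathmin family, at −0.21 (SE 0.0483) and Sybu, syntabulin, which loads cargo on kinesin, at −0.23 (SE 0.0578) per the authors' deposited table. Tiam2, an exchange factor for Rac, Cyria, a Rac-binding regulator of actin branching, Arpc5, a subunit of the Arp2/3 complex, Phactr1 and Cap2, both actin regulators, were at −0.16, −0.20, −0.14, −0.16 and −0.29 (SE 0.0451, 0.0449, 0.0400, 0.0441 and 0.0821). Wdr47, which protects neuronal microtubules, was at −0.15 (SE 0.0422). Dync1i1, the neuronal intermediate chain of dynein, was 23.1% lower at −0.38 (SE 0.0822) and was the 1 called of 24 motor and microtubule genes, whose median was −0.01, with the heavy chain Dync1h1 at 0.13 (SE 0.0443, adjusted p = 0.143) per the authors' deposited table. Hap1, the huntingtin-associated protein that links vesicles to motors, went the other way, 30.7% higher at 0.39 (SE 0.0570, adjusted p = 3.94e-08). Plec, plectin, and Sorbs3, vinexin, both linkers of the cytoskeleton to adhesions, rose at 0.26 and 0.42 (SE 0.0683 and 0.106).

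Called genes of excitability and neuronal signalling are next. Atp2b4, a calcium pump of the plasma membrane, was at −0.20 (SE 0.0433), Kcnk2, a background potassium channel, at −0.25 (SE 0.0637) and Pde4b, a cAMP phosphodiesterase, at −0.28 (SE 0.0605) per the authors' deposited table. Gnal, the olfactory-type G protein of striatal neurons, Gpr85, an orphan receptor of the brain, and Kctd12, an auxiliary subunit of GABA-B receptors, were at −0.20, −0.22 and −0.25 (SE 0.0534, 0.0559 and 0.0673). Mc4r, the melanocortin receptor, was at −0.38 (SE 0.103), and Kctd13, an adaptor of a cullin ubiquitin ligase, at −0.24 (SE 0.0544) per the authors' deposited table. In the list of glutamate and GABA receptors 24 of 26 genes were below 0, with a median of −0.09, but 0 were called, 3 reached an unadjusted p under 0.05, and Grin1, the obligate NMDA receptor subunit, stood at −0.18 (SE 0.0853, adjusted p = 0.378). Release genes were level (9 of 21 above 0, median −0.02), with Rims2 the 1 called, at 0.23 (SE 0.0660), and the calcium sensor Syt1 at −0.02 (SE 0.0443). Abat, which breaks down GABA, rose at 0.17 (SE 0.0415), and Th, the first enzyme of dopamine synthesis, at 0.83 (SE 0.202) from a low mean normalized count of 46.2, per the authors' deposited table.

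Among cell identity genes, several of cortical excitatory neurons were called lower. Neurod6, Mef2c and Mpped1, expressed in differentiating excitatory neurons of the cortex, were at −0.20, −0.23 and −0.22 (SE 0.0456, 0.0468 and 0.0492) per the authors' deposited table, at mean normalized counts of 10202, 2364 and 6634. In the deep-layer list 4 of 20 genes lay above 0, with a median of −0.10, and 11 had an unadjusted p under 0.05 (11.5% of all genes tested did). Ldb2, a LIM-domain cofactor, was the 1 called (−0.25, SE 0.0709), and Fezf2, the selector of subcerebral neurons, stood at −0.11 (SE 0.0434, adjusted p = 0.263). The upper-layer list had 5 of 13 above 0 (median −0.05), with Cux1 called higher at 0.18 (SE 0.0432) and Mef2c lower. Ndnf, of Cajal-Retzius and layer 1 neurons, was at −0.49 (SE 0.137), while Reln, their defining gene, was at −0.03 (SE 0.0303) per the authors' deposited table.

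The progenitor and ventral lists held at most 1 called gene each, where 1.21% of all genes tested were called. Dmrta1, a factor of dorsal progenitors, was 56.4% higher at 0.64 (SE 0.142, adjusted p = 0.00205) and was the 1 called of 18 dorsal patterning genes (13 above 0, median 0.05). Ttyh1, a membrane protein of radial glia, rose at 0.13 (SE 0.0372) as the 1 called of 17 radial glia genes (11 above 0, median 0.05), and Sox2 was at 0.16 (SE 0.0605, adjusted p = 0.194) per the authors' deposited table. Msi2, an RNA-binding protein of neural stem cells, and Mlc1, a membrane protein of glia, rose at 0.17 and 0.34 (SE 0.0439 and 0.0628). The joint list of intermediate progenitors and early excitatory neurons had 6 of 15 above 0 and a median of −0.05, the neuronal Neurod6 being the 1 called; Eomes and Neurog2, factors of the progenitors, stood at 0.02 and 0.03 (SE 0.0321 and 0.0393). In the ventral GABAergic list 16 of 22 lay above 0 (median 0.09), and 11 had an unadjusted p under 0.05 (11.5% of all genes tested did). Dlx1 was the 1 called, at 0.17 (SE 0.0466, adjusted p = 0.0369), and Dlx2 stood at 0.15 (SE 0.0490, adjusted p = 0.0835). Dlx1 overlaps its antisense gene Dlx1as. Markers of midbrain, thalamus and hypothalamus were above 0 in 4 of 5 (median 0.06, 0 called), with Gbx2 at 0.38 (SE 0.158). The part that the share of dorsal and ventral tissue in each dissection has in these values was not tested.

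Of 25 cilium genes tested 2 were called, both lower, against 0.470% of all genes tested. Ift122, a retrograde transport protein of the cilium, was 14.9% lower at −0.23 (SE 0.0577, adjusted p = 0.0102), and Wdpcp, a planar polarity effector needed for ciliogenesis, 23.4% lower at −0.38 (SE 0.109, adjusted p = 0.0399) per the authors' deposited table. The list had 8 above 0 and a median of −0.05, with Ift88 at 0.05 (SE 0.0830). Ift122 overlaps Mbd4.

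Imprinted genes, which are expressed from 1 parental copy and act on growth, stood higher. Of 21 tested, 4 were called and all 4 rose (0.738% of all genes tested did), 18 lay above 0, 12 had an unadjusted p under 0.05, and the median was 0.13. Peg3, a paternally expressed zinc finger gene, was 23.7% higher at 0.31 (SE 0.0624, adjusted p = 0.000487), and Rian, a long noncoding RNA of the Dlk1-Dio3 region, 15.7% higher at 0.21 (SE 0.0410, adjusted p = 0.000187) per the authors' deposited table. Dlk1, the membrane ligand of that region, rose at 0.31 (SE 0.0830, adjusted p = 0.0211), so that genes of both parental copies moved the same way. Nnat, neuronatin, was 8.2% higher at 0.11 (SE 0.0307) and is 1 of the most abundant genes of the table, at 44535. The growth pair Igf2 and H19 stood at −0.05 and 0.13 (SE 0.0618 and 0.0512) and was not called. Rian overlaps Rtl1 and small RNA genes, and Nnat lies in the span of Blcap. Asb4, an ankyrin and SOCS-box protein of another imprinted region and not in the list, rose at 0.36 (SE 0.0736).

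Glycolysis was the metabolic list with most calls. Of 22 enzymes and carriers 4 were called, all higher, against 0.738% of all genes tested; 19 lay above 0 and the median was 0.10. They were Pfkl, a phosphofructokinase, 17.1% higher at a log2 fold change of 0.23, Tpi1, the triose isomerase, 15.2% higher at 0.20, Ldha, lactate dehydrogenase, 13.0% higher at 0.18, and Pkm, the pyruvate kinase of dividing cells and neurons, 12.9% higher at 0.17 (SE 0.0515, 0.0468, 0.0427 and 0.0419) per the authors' deposited table. Hypoxia genes outside glycolysis had 9 of 16 above 0, a median of 0.01, 0 called and 1 at an unadjusted p under 0.05, with Vegfa at 0.20 (SE 0.0692, adjusted p = 0.143) and Bnip3 at 0.00 (SE 0.0741). Nuclear-encoded respiration genes had a median of 0.01 and 13 of 21 above 0, and the complex III assembly factor Lyrm7 was at −0.48 (SE 0.123). Other metabolic genes were called singly: Cpt1a, which admits fatty acids to mitochondria, at 0.32 (SE 0.0670), Bcat1, the cytosolic branched-chain aminotransferase, at 0.15 (SE 0.0386), Pdxk, which makes pyridoxal phosphate, at 0.30 (SE 0.0705), and Abcb10, a mitochondrial transporter, at 0.28 (SE 0.0582) per the authors' deposited table. Cholesterol synthesis had 0 of 18 called, also without adjustment, and a median of 0.01.

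Promoters of the glycolysis genes were searched for ACGTG, the core of the hypoxia response element, on both strands of RefSeq promoters (250 bases before to 50 after a start, GRCm38.p6), since hypoxia-inducible factor is the textbook regulator of these enzymes. It was present in 13 of the 21 list genes with a promoter in the table (61.9%), in 29.4% of the 10444 genes tested with one, and in 19.6% of all 32851 promoters. Of the 4 called genes, Ldha and Pkm hold it and Tpi1 and Pfkl do not have these letters in the window. The stretches that hold it before the start are shown for the called genes, at chr7:46845647-46845676 and chr7:46845751-46845780 (Ldha) and at chr9:59657140-59657169 (Pkm), all on the plus strand; capitals mark the match, and CACGTG reads as a match on both strands. Each lies within the annotated span of its gene, upstream of the start used.
Ldha, distal: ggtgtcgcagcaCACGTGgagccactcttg
Ldha, proximal: gcctaCACGTGggttcccgCACGTccgctg
Pkm: ctccgatccggtCACGTccgcgccgcagca

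Metallothioneins, small metal-binding proteins induced by zinc, glucocorticoid and stress, were led by Mt1, 57.7% higher at 0.66 (SE 0.111, adjusted p = 4.91e-06) per the authors' deposited table. Its neighbour Mt2 stood at 0.55 with a larger error (SE 0.218, adjusted p = 0.223). Mt1 was the 1 called of 8 genes of metallothioneins and zinc carriers, which had 5 above 0 and a median of 0.03. The metal response core, TGCACNC or TGCGCNC, was found in 5 of the 7 list genes with a promoter (71.4%), in 42.3% of genes tested with one and in 25.7% of all promoters. Mt1 has 3 matches in its 300 bases, 1 of them before the start, and Mt2 has 4, 3 of them before the start. The match before the start of Mt1 lies within the annotated span of the gene, upstream of the start used. The match of Mt1 at chr8:94179055-94179084 and the 250 bases before Mt2 at chr8:94172368-94172617, both on the plus strand, show the cores in capitals.
Mt1: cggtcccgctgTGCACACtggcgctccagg
Mt2: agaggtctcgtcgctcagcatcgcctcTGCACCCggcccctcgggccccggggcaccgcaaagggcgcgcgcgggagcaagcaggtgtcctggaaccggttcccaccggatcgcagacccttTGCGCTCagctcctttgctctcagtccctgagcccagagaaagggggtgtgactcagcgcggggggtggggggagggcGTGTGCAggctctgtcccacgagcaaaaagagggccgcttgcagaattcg

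Stress and defence genes beside Mt1 rose singly. Gsta4, a glutathione transferase that clears lipid aldehydes, and Nfe2l2, the master regulator of the antioxidant response, rose at 0.64 and 0.33 (SE 0.154 and 0.0939), the 2 called of 20 genes of glutathione and oxidative stress (16 above 0, median 0.05), while the classic Nfe2l2 target Nqo1 was too low to be tested. Atf4, the regulator of the amino acid response, rose at 0.16 (SE 0.0461) per the authors' deposited table, its target Psat1 stood at 0.11 (SE 0.0399, adjusted p = 0.135), and the list had 10 of 15 above 0. The amino acid response core TGATGNAA was found in 3 of the 14 list genes with a promoter (21.4%), in 2.51% of genes tested with a promoter and in 3.97% of all promoters. Those 3 were Chac1, Asns and Pycr1, at 0.26, −0.04 and −0.17 (SE 0.236, 0.0765 and 0.121), and none was called. Atf4 and Psat1 do not have these letters in their windows. Transfer RNA synthetases had 0 of 20 called (4 unadjusted) and a median of −0.01. Car14, a membrane carbonic anhydrase, was 76.6% higher at 0.82 (SE 0.119, adjusted p = 1.99e-08), whereas Car2 was at −0.32 (SE 0.149, adjusted p = 0.355); Car14 overlaps Aph1a.

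Class I histocompatibility genes, which present peptides at the cell surface, were called higher in 3 of 10 genes tested, against 0.738% of all genes tested. H2-K1 was 72.9% higher at 0.79 (SE 0.146, adjusted p = 4.80e-05), H2-Q4 63.3% higher at 0.71 (SE 0.181, adjusted p = 0.0132) and H2-D1 31.2% higher at 0.39 (SE 0.0944, adjusted p = 0.00678) per the authors' deposited table. Their levels are low, at 109, 57.6 and 207, the paralogs may share reads, and all 3 lie between 30 and 40 Mb of chromosome 17. The list had 8 of 10 above 0 and a median of 0.27, beside microglial markers with a median of 0.03.

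Called genes of ubiquitin, autophagy and lysosome close the account. Marchf8, a membrane ubiquitin ligase that sends receptors to lysosomes, was 17.1% higher at 0.23 (SE 0.0407, adjusted p = 2.72e-05). Calcoco1, a receptor for selective autophagy, Fundc1, a mitophagy receptor, Tmem74, an autophagy protein of lysosomes, and Mfsd8, a lysosomal transporter whose loss causes a lipofuscinosis, were at −0.17, −0.20, −0.31 and −0.26 (SE 0.0418, 0.0577, 0.0887 and 0.0743) per the authors' deposited table. In the list of endosome sorting and autophagy 19 of 21 lay below 0, with a median of −0.04, 0 called and 4 at an unadjusted p under 0.05, among them the ESCRT-III gene Chmp2a at −0.17 (SE 0.0523, adjusted p = 0.0605). Proteasome genes had 0 of 20 called, also without adjustment, and a median of −0.01.

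Most called genes kept their direction in the separate E18.5 libraries. Of the 160 that had a value there, 135 (84.4%) had the same sign, against 7738 of 13390 (57.8%) over all genes tested at E14.5. Higher genes kept it in 83 of 97 cases, with a median of 0.288 at E14.5 and 0.111 at E18.5, and lower genes in 52 of 63, with medians of −0.245 and −0.071. An unadjusted p under 0.05 at E18.5 was reached in the same direction by 54 and in the opposite one by 1, Pif1, at −0.30 (SE 0.132) per the authors' deposited table for that stage. The 5 genes called at both stages were Chd8, Marchf8, Pfkl, Pkm and Crlf2, a cytokine receptor at −0.51 (SE 0.143) and −0.48 (SE 0.103), of the 9 called at E18.5 (0.0662% of 13601). In size 155 of the 160 were smaller at E18.5. They were chosen by their values at E14.5, so this does not show a smaller effect at the later stage.

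**Figure D5:**
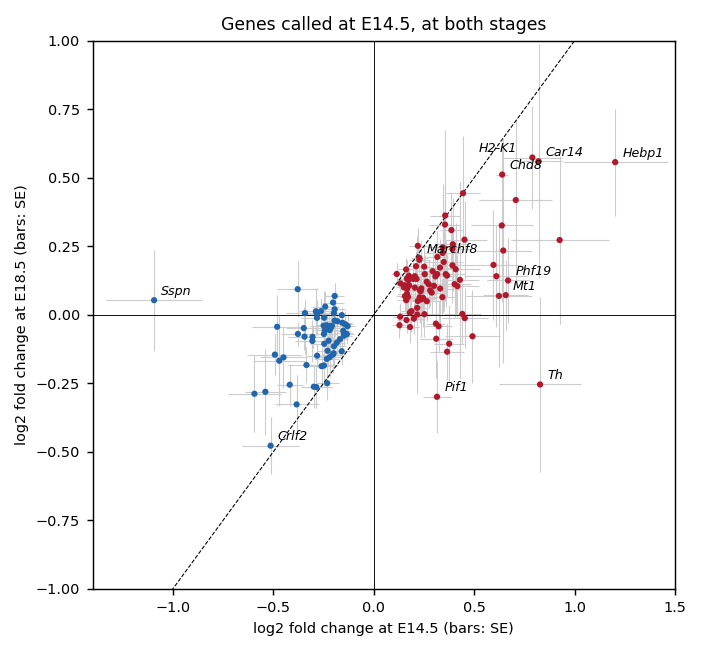
Log2 fold change of KI against WT at E14.5 (horizontal) and E18.5 (vertical) for the 160 genes called at E14.5 that have a value at both stages, with SE bars; red genes were called higher and blue genes lower at E14.5, and the dashed line marks equal values. The same sign is shared by 135 genes, and 155 are smaller in size at E18.5; Pif1 (0.31 and −0.30) and Sspn (−1.09 and 0.05) lie off the common direction.

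A test of the stage difference itself called 0 of 13106 genes after Benjamini-Hochberg adjustment, with 593 (4.52%) at an unadjusted p under 0.05. The largest by p were Pif1, with a difference of −0.61 (SE 0.149, adjusted p = 0.350), and the oligodendrocyte factor Olig2, at 0.23 and −0.19 at the respective stages (difference −0.42, SE 0.106, adjusted p = 0.350). Gnal, Rabgap1l, Id2 and Pde4b, all lower at E14.5, stood at 0.04, 0.07, 0.01 and 0.00 at E18.5 per the authors' deposited table, and Alg3, a mannosyltransferase, went from 0.37 to −0.14. Among lists, glycolysis kept 18 of 22 above 0 at E18.5 (median 0.09), the ventral GABAergic list 18 of 22 (0.09), imprinted genes 18 of 21 (0.09) and class I genes 10 of 10 (0.23). Mitotic genes had 0 of 20 above 0 there (median −0.10), Notch genes 6 of 18 (−0.03), Hedgehog genes 6 of 14 (−0.02), deep-layer genes 12 of 20 (0.03) and glutamate and GABA receptors 17 of 26 (0.02). Whether a list differs between the stages was not tested.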

How the data were processed

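The data are polyA RNA-seq of E14.5 forebrain, 5 WT and 5 KI libraries. Per the submitters' processing notes, the reads were handled with build mm10 and with tools that include HISAT2 2.1.0, Trimmomatic 0.39, featureCounts 2.0.0 and, for the authors' tests, DESeq2 1.26.0. Per the file headers, the authors' DESeq2 tables give for each gene a mean normalized count (a signal averaged over the libraries), a log2 fold change, its SE, a Wald score, a p-value and an adjusted p. The deposited score was checked to be the log2 fold change over its SE. A Benjamini-Hochberg adjustment over the 13417 genes with an adjusted p gave back the deposited values. There were 0 columns of per-sample values, so depth per library is unknown and nothing could be refitted. NCBI gene IDs were matched to a RefSeq table of GRCm38.p6 (the mm10 assembly): 17192 of 17940 had a symbol (95.8%) and 748 did not.

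From these values the shares, medians, 95% intervals (estimate ± 1.96 SE), exact binomial intervals and the stage difference (difference of the log2 fold changes over the root of the summed squared SE, Benjamini-Hochberg adjusted) were computed with Python 3.11.15, numpy 2.4.6, pandas 2.3.3 and scipy 1.17.1, and plotted with matplotlib 3.10.9. Scripts were tested on simulated data. The comparison, the 54 gene lists, written from general knowledge, and the rules were chosen with earlier results of these data known, and some lists share genes. Named genes are Chd8, called genes with a symbol (gene models named Gm, Rik or -ps as counts unless leading by adjusted p; Gm14204 is named as 1 of few in its interval), the called members and first 2 genes of each list, and the 10 leading stage differences, besides the markers of forebrain and of male embryos written down for the check of the labels. Genes named for an overlap with one of these come from the RefSeq table; any other gene named with a value was singled out after the values were seen. Alternatives were other adjustments, count minimum, null, fold threshold, threshold, centring and chromosomes left out; leaving out chromosome 6 alone was added after the data were seen. Chromatin immunoprecipitation and ATAC-seq libraries were not analysed here. Results of a few genes that these rules name are left out.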

Additional observations from a re-analysis of the deposited data

How the results depend on the processing

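Chd8 at E14.5 was called under every alternative that tested it, with an adjusted p between 1.07e-88 after centring and 3.22e-59 with the empirical null. All alternatives used the deposited log2 fold changes, and centring moved them only by the median of −0.0005. They therefore could not test the direction of a called gene. The count of 162 called genes became 31 with the empirical null (Wald statistics scaled by 1.22), 14 when tested against a log2 fold change of 0.1, 56 with the Benjamini-Yekutieli adjustment and 74 at an adjusted p under 0.01. It was 139 when adjusted over every gene with a p-value, 165 where only genes with a mean of 100 or more were tested, 163 after centring, 131 without chromosomes 6 and 14 and 136 without chromosome 6. The share higher in KI went from 61.1% to 80.6% with the empirical null and 78.6% against a log2 fold change of 0.1, and was between 59.4% and 66.2% otherwise. Called under every alternative that tested them were 12 genes: Chd8, Hbb-y, Car14, Hap1, Igfbp5, Fras1, Nsmce1, Phf19, Mt1, H2-K1, BC025920 and 2610318N02Rik. The empirical null kept 19 more (Igfbp4, Draxin, Marchf8, Dnmt3a, Mdk, Mlc1, Chl1, Rian, Lama5, Ccdc8, Phf21b, Tmem209, Peg3, Cpt1a, Map3k20, Asb4, Abcb10, Mef2c and Cav1), so every other called gene, the glycolysis genes and H2-D1 among them, lost its call there. No stage difference was called among genes with a mean of 100 or more or with the empirical null. No paired analysis was possible because the tables hold no value per library, and for the same reason leaving out a replicate was not run. Scarce genes have the larger SE (median 0.181 in the lowest class of mean normalized count, 0.0425 in the highest), and the weight of single embryos is unknown.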

Other observations

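Further called genes are given as values from the authors' deposited table. Among enzymes of glycans, Alg3 and the sialyltransferase St6gal1 stood at 0.37 and −0.21 (SE 0.0861 and 0.0527), and Slc35b1, a nucleotide transporter of the endoplasmic reticulum, at −0.20 (SE 0.0560) per the authors' deposited table. Among genes of RNA processing and decay the snoRNA host Snhg8 rose at 0.49 (SE 0.135), while Dhx34, a helicase of nonsense-mediated decay, and C1d, a cofactor of the nuclear exosome, were at −0.25 and −0.20 (SE 0.0715 and 0.0520) per the authors' deposited table. Ppia, cyclophilin A, often used as a reference gene in PCR, rose at 0.15 (SE 0.0385, adjusted p = 0.0132) from a mean normalized count of 15494.

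In the membrane and its traffic, Cav1, the caveolar coat protein, rose at 0.44 (SE 0.0924), Plin3, a lipid droplet protein, at 0.35 (SE 0.0976) and Mpp2, a synaptic scaffold, at 0.21 (SE 0.0554) per the authors' deposited table. Ecel1, an endopeptidase of injured and developing neurons, rose at 0.33 (SE 0.0780), and Rnf213, a large ubiquitin ligase, at 0.34 (SE 0.0951). Ermn, a cytoskeletal protein of oligodendrocytes, rose at 0.61 (SE 0.160) per the authors' deposited table, before myelin forms, and the other 10 oligodendrocyte genes tested had no call, Olig1 being at 0.04 (SE 0.110). Pcdhga12 was at −0.34 (SE 0.0913) as the 1 called of 16 clustered protocadherins, whose genes overlap and share exons, and the immediate early gene Fosl2 at −0.34 (SE 0.0933), while Fos was too low to be tested.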
